A study of Mus musculus with 16 samples.

Results

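The comparison described here is that of whole back skin between the mice labelled GRK2 eKO and their controls. It covers all 10 skin libraries of a series of 16 samples, 5 per genotype, each from total RNA of C57BL/6 back skin at 8 months of age, and it is described over the 16589 genes, of 55357 rows in the table, that had a value of at least 10 in 5 or more of the 10 libraries. The labels give the genotypes only as Control and GRK2 eKO. The abbreviation, the promoter that drives the deletion and the alleles carried by the controls are not spelled out there, nor are sex, litter and preparation batch. The other 6 samples of the series, sorted hair follicle stem cells, were not used here. Values are the authors' normalised reads, that is, reads per gene divided by 1 size factor per library; they are not scaled for gene length, so levels are compared between libraries and not between genes. Where a gene is given by its single libraries, the values run from replicate 1 to replicate 5 of each genotype, numbered in the order of deposition. Nothing in the labels says more about how the 5 libraries of a genotype were obtained, so p-values measure the spread between these libraries.

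GRK2 is a kinase that phosphorylates activated G-protein-coupled receptors, which lets arrestins bind them and ends G-protein signalling. Back skin is a mixture of interfollicular epidermis, hair follicles, sebaceous glands, dermis, fat, vessels, nerves, resident leukocytes and, below the dermis, a sheet of striated muscle, the panniculus carnosus. Hair follicles pass through growth (anagen), regression and rest (telogen), and growing follicles add large amounts of keratin messenger RNA of the hair shaft and the inner root sheath. The upper follicle, its isthmus and infundibulum, opens to the surface and carries the sebaceous gland, whose cells fill with wax esters, triglycerides and cholesterol esters and then burst. In such bulk tissue, a lower number of cells of a type and less RNA per cell cannot be told apart.

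The libraries held 8213632 to 16383486 recovered reads, the lowest and the highest both in the eKO group. Epidermal and dermal defining genes were abundant in all 10, with Krt5 at 42301 to 68386 and Krt10 at 59788 to 130951 normalised reads, and Col1a1, a dermal collagen, varied from 6525 to 121728 with overlap of the genotypes. Grk2 itself was at 1237, 1331, 1331, 1099.7 and 1492 in control and at 979.6, 1100.4, 1172, 1076 and 1224 in eKO libraries, and the groups overlapped (log2 fold change -0.22, SE 0.10, limma adjusted p 0.343; two-sided exact permutation p 0.0397, the smallest possible being 0.00794). Control replicate 5 and eKO replicate 3 held at most 0.950 normalised reads of each of 4 Y-linked genes, whereas Ddx3y was at 1029.75 or more in the other 8. The row with the most reads, ENSMUSG00000119584, which has no symbol in the name list used, took 4.96% to 6.57% of reads in control libraries and 2.58% to 3.68% in eKO libraries, without overlap (log2 fold change -0.87, SE 0.60, limma adjusted p 0.559). Lars2, named for the mitochondrial leucyl-tRNA synthetase, was also lower in every eKO library, at 0.800% to 0.980% against 0.486% to 0.617% of reads (log2 fold change -0.67, limma adjusted p 0.233). The limma SE draws on the spread of other genes of like level as well as on the row's own. For rows this abundant, it need not match the spread of their own libraries. These 2 rows move with genotype in every library, and their part in the results below was not tested beyond the fit reported with the covariates.

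Hair keratin expression differed more between libraries of one genotype than between the genotypes. The mean log2 value of the hair shaft list, keratins and keratin-associated proteins of the fibre, was 1.28, 2.89, 6.42, 10.79 and 7.01 in the control libraries and 1.16, 5.78, 8.51, 7.52 and 1.44 in the eKO libraries. Control replicate 4 was thus the highest of all, and control replicates 1 and 2 and eKO replicates 1 and 5 were low. The genotype means differed by -0.80 (eKO minus control), against an SD within genotypes of 3.58. Inner root sheath genes ordered the libraries in nearly the same way, at 2.53, 5.04, 8.31, 12.04 and 8.68 against 3.25, 8.19, 10.97, 9.99 and 3.89. As an example, Krt71, a keratin of the inner root sheath, was listed at 2.84, 329.7, 4617, 79018 and 8093 normalised reads in control and 37.4, 3216, 31620.01, 19388 and 79.0 in eKO skin. Each genotype therefore held libraries with and without strong hair keratin expression, and both ranges overlapped widely. Of the 19 hair shaft genes tested, 0 passed the genotype test (limma, 0 at an unadjusted p under 0.05), with a median log2 fold change of -0.87. For the inner root sheath it was 0 of 11 (limma, 0 at an unadjusted p under 0.05), with a median of -0.10. The regulators of the hair matrix, the dividing base of the growing follicle, gave 0 of 13 called by limma, again 0 at an unadjusted p under 0.05. The first principal component of all tested genes, with 39.6% of the variance, ran from low to high hair keratin expression, with control replicate 1 at its low end and control replicate 4 at its high end. The second, with 16.3%, placed all 5 control libraries between -44.0 and -10.7 and all 5 eKO libraries between 0.87 and 53.3.

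**Figure D1:**
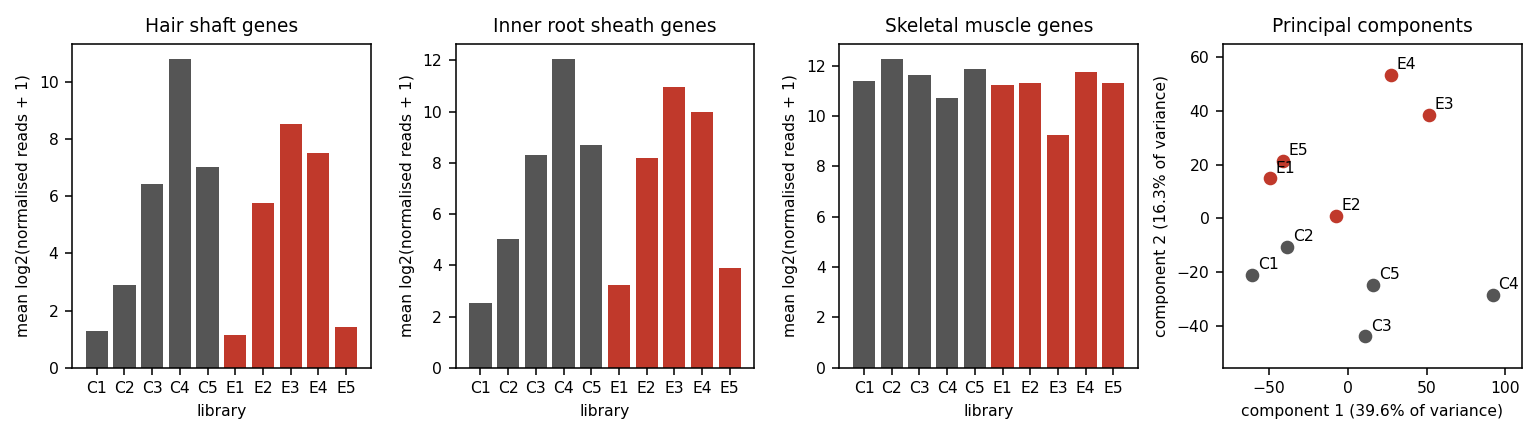
Mean log2(normalised reads + 1) of the hair shaft, inner root sheath and skeletal muscle lists in each library (bars; C1 to C5 control in grey, E1 to E5 eKO in red), and the first 2 principal components of the 16589 tested genes (points, 1 per library). The hair lists range from 1.16 to 12.04 within and across genotypes, the muscle list dips to 9.24 in E3, and the second component separates the genotypes.

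Muscle content also varied, with an SD within genotypes of 0.81 for the mean log2 value of its list, less than that of several other lists, such as melanocytes (1.44) and stressed keratinocytes (1.31). The 22 genes of fast and shared striated muscle took 1.24%, 2.05%, 1.47%, 0.873% and 1.80% of the reads in control and 1.17%, 1.27%, 0.356%, 1.74% and 1.27% in eKO libraries. eKO replicate 3 stood below all others, and the remaining 4 eKO libraries lay within the control range. Every one of the 22 genes had a negative fold change, from -1.40 to -0.27 with a median of -0.55, but 0 passed the test (limma, 1 at an unadjusted p under 0.05), where over all genes tested 14.2% reached that level. Myh7, the slow myosin heavy chain, was listed at 0 in 9 of the 10 libraries and at 3.37 in the other, whereas Myh4, the fastest isoform, ran from 106 to 37547. Myh4 was thus detected in all 10 libraries. Without eKO replicate 3, the median of the 22 genes was -0.11.

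Against this spread, 62 of the 16589 genes passed the genotype test (limma on log2(value + 1), Benjamini-Hochberg adjusted p under 0.05), which is 0.374%. A total of 38 were higher in eKO skin (0.229% of the genes tested) and 24 lower (0.145%), and 42 changed at least 2-fold, 29 upward and 13 downward. The libraries of the genotypes did not overlap for any of the 62, as was so for 4.18% of all genes tested (1.74% with eKO above control, 2.45% with eKO below). Over all tested genes the median log2 ratio was 5.9e-05. The smallest adjusted p in the table was 0.00960, reached by 9 genes (Slc46a2, Ptprz1, Mfge8, Paqr7, Crabp2, Elovl6, Olr1, Zbtb7c and Robo2), of which Ptprz1 was the only fall. The count changed when 1 library was left out, which also leaves fewer libraries to test, and the cause was not tested. It was 47 without control replicate 4 and 57 without eKO replicate 2, each with 38 of the 62 among them. Without any one of control replicates 1, 2, 3 and 5 or eKO replicates 1, 3, 4 and 5 it was between 11 (without eKO replicate 1) and 23. Without the 2 libraries that lacked Y-linked expression it was 0 by limma (1749 genes at an unadjusted p under 0.05) and 0 by edgeR (1722).

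**Figure D2:**
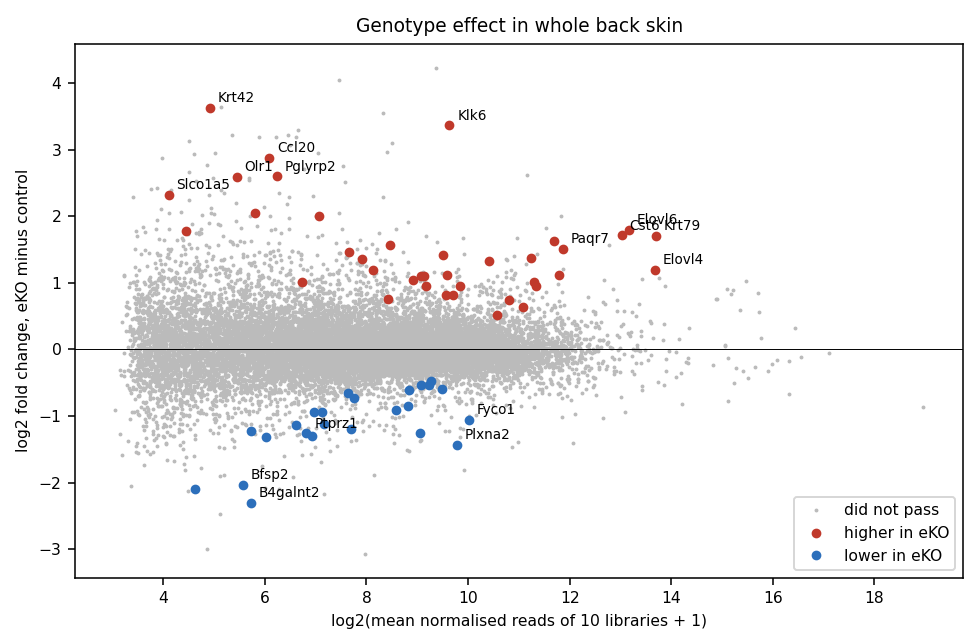
Log2 fold change of eKO over control (vertical) against log2 of the mean normalised reads of the 10 libraries plus 1 (horizontal) for the 16589 tested genes, 1 point per gene. The 38 genes higher in eKO (red) and the 24 lower (blue) that passed the test are spread over low to high levels. None is among the genes with the most reads, whose limma SE draws in part on the spread of other genes of like level. Krt42 at 3.62 and B4galnt2 at -2.31 are the extremes of those that passed.

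Among the genes that rose were keratins Krt79 and Krt42, the cystatins Cst6 and Cstb and the protease Klk6, set together here after their values were seen. Krt79 (ENSMUSG00000061397), a keratin that marks the infundibulum and the sebaceous duct, was at 6188, 6105, 9142, 4626 and 5053 in control and at 26802, 13422, 20474, 16393 and 24883 in eKO skin. The lowest eKO library lay above the highest control, and the rise was 3.27-fold (log2 fold change 1.71, SE 0.23, limma adjusted p 0.0206). Cst6, a secreted cystatin that inhibits cathepsins and legumain in cornifying cells, was at 4127, 3457, 4729, 3140.3 and 3363 against 17550.03, 9440.4, 16447, 6848 and 14359.7 (log2 fold change 1.71, SE 0.25, limma adjusted p 0.0308). Its intracellular relative Cstb was at 386, 496, 443, 302 and 341 against 1254, 735, 948, 1096 and 1249 (log2 fold change 1.42, SE 0.18, limma adjusted p 0.0110), and it was 1 of the 11 genes that kept their call whichever library was left out. Both inhibitors were higher in all 5 eKO libraries than in any control. Klk6, a secreted serine protease of the kallikrein family, had the largest rise after Krt42, from 118, 308, 131, 105 and 51.3 to 2585, 459, 1312, 1189 and 1673, although eKO replicate 2 was far below the other 4 (log2 fold change 3.36, SE 0.50, limma adjusted p 0.0308). The type I keratin Krt42 was barely present in control skin, at 0, 12.7, 3.13, 1.87 and 7.6, and at 73.0, 30.4, 65.5, 54.3 and 45.3 in eKO skin (log2 fold change 3.62, SE 0.63, limma adjusted p 0.0420). Krt42 has close keratin relatives, and how reads shared between them were counted is not stated, so its level is uncertain. Of the 10 tested genes of the isthmus and infundibulum list, 3 rose (Krt79, Cst6 and Krt42) and 0 fell, against 0.229% and 0.145% of all genes, and the list's median was 0.95 where that of all genes was near 0. Lgr6, a receptor that marks stem cells of the isthmus, lay the other way, at 888, 1320.4, 889.7, 1019 and 1324 against 669.7, 792, 669, 546 and 796, without overlap and without passing (log2 fold change -0.64, limma adjusted p 0.108). Among 4 kallikreins tested, Klk6 rose, while Klk7, which degrades the desmosomes of the horny layer, had a log2 ratio of 0.91 (limma adjusted p 0.0560) and Klk8 one of 1.14 (limma adjusted p 0.243), and both missed 0.05. The lists were written with earlier results of these data known, so their counts and medians are descriptions.

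To show the regulatory sequence of 3 genes of different function that rose, the bases upstream of the start of Krt79 (upper follicle), Elovl6 (lipid) and Ccl20 (chemokine) are printed, from RefSeq on GRCm38.p6, each 250 bases ending at the base before the start and written along the gene's strand. Krt79 lies on the minus strand at chr15:101940325-101940574, Elovl6 on the plus strand at chr3:129532136-129532385 and Ccl20 on the plus strand at chr1:83116516-83116765. The skin table was counted on another build, GRCm39 per the submitters' processing notes, so these positions belong to the reference table only.
Krt79: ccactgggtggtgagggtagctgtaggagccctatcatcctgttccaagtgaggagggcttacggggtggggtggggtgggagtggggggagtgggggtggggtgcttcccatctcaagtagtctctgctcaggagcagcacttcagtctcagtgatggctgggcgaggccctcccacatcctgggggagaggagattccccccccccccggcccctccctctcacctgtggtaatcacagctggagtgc
Elovl6: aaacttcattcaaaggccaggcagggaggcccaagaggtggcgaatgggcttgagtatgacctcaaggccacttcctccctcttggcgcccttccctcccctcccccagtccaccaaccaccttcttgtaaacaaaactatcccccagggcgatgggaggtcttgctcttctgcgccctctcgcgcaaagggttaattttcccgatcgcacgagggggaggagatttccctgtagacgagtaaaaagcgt
Ccl20: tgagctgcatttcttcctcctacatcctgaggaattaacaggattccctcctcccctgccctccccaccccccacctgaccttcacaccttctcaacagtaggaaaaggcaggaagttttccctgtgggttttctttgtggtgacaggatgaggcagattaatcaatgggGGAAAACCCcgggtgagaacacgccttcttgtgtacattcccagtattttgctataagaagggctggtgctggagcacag
Capitals mark a match, on either strand, to one of 5 motifs searched: TATAAA (the TATA box), the CCAAT box, TGANTCA (the AP-1 letters), the E-box CACGTG, and also GGGNNTTCC (letters of the NF-κB family). The single match is GGGNNTTCC on the opposite strand of Ccl20, from base -80 to base -72 before the start. A promoter was found for 41 of the 62 genes, 27 higher and 14 lower. GGGNNTTCC was held by 2 of the 27 (Ccl20 and Paqr7) and 0 of the 14, against 5.61% of the 27025 genes in the table. CCAAT was held by 10 of 27 and 7 of 14, against 37.5%, and CACGTG by 4 of 27 and 0 of 14, against 6.86%. TGANTCA was found in 3 of 27 and 2 of 14, against 7.82%, and TATAAA in 2 of 27 and 0 of 14, against 14.3%. These counts describe letters in a window and no binding.

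Several genes that act in sebum and membrane lipids also rose. Elovl6, which elongates saturated and monounsaturated fatty acids, was at 3730.1, 3284, 4534, 3912 and 4754 in control and at 14042, 15221, 15109, 19614 and 8169 in eKO skin, a rise of 3.47-fold (log2 fold change 1.79, SE 0.21, limma adjusted p 0.00960). Even the lowest eKO library, replicate 5, was above every control. Elovl4, which makes the very long chains of barrier ceramides and sebum, was at 9047, 9526, 8719, 5294 and 7389 against 17839, 15942, 19959, 22716 and 14129 (log2 fold change 1.19, SE 0.19, limma adjusted p 0.0383). Cidea, a protein of lipid droplets, was at 229, 211, 142, 102 and 222 against 574, 457, 558, 630.02 and 389 (log2 fold change 1.57, SE 0.24, limma adjusted p 0.0308), and control replicate 4, the library with the most hair keratin, was its lowest. Far2, which reduces fatty acids to the alcohols of wax esters, also rose. In the cholesterol pathway, Msmo1, which removes methyl groups from sterol precursors, was at 1746, 1692, 2025, 1426 and 1931 against 3303, 3349, 2902, 4715 and 2925 (log2 fold change 0.95, SE 0.15, limma adjusted p 0.0330). Acat2, the thiolase that makes acetoacetyl-CoA, rose as well. Paqr7, a membrane progestin receptor, was at 2224, 1578, 1939, 1436 and 2516 against 6552, 5759, 6039, 5084 and 4057 (log2 fold change 1.52, SE 0.18, limma adjusted p 0.00960), with the groups well apart. Paqr7 is in none of the lipid lists and is placed here for reading only.

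By list, 4 of 23 sebaceous gland genes rose (Krt79, Cidea, Elovl4 and Far2) and 0 fell, with 21 of 23 fold changes positive and a median of 0.85, where 0.229% of all genes tested rose and 0.145% fell. With the hair and muscle scores as covariates these 4 missed the threshold (limma adjusted p 0.0525 to 0.100). Their log2 fold changes there were 1.56 (Krt79), 1.58 (Cidea), 1.21 (Elovl4) and 1.35 (Far2), beside 1.71, 1.57, 1.19 and 1.37 without covariates. With the hair score alone all 4 passed (limma adjusted p 0.0134 to 0.0353). Krt79 also belongs to the isthmus and infundibulum list and was counted in both. In cholesterol synthesis, 2 of 22 rose, Msmo1 among them, and 0 fell, with a median of 0.26. Idi1, which forms the isoprenoid building block, had a log2 ratio of 1.40 without passing (limma adjusted p 0.0722). In fatty acid synthesis, 1 of 17 rose (Elovl6) and 0 fell, with a median of 0.23. Hsd17b12, which acts in the elongation cycle, had a log2 ratio of 0.88 (limma adjusted p 0.0560), and Acacb, an acetyl-CoA carboxylase, one of 0.80 (limma adjusted p 0.174). The sebaceous gland list's mean log2 value was 9.86, 9.57, 9.49, 9.08 and 9.70 in control and 10.56, 10.21, 10.37, 10.40 and 9.99 in eKO libraries, and the groups did not overlap. The smallest gap lay between control replicate 1 and eKO replicate 5. Such separation was not particular to this list. The isthmus and infundibulum list, at 8.03 to 8.44 in control and 8.80 to 9.49 in eKO libraries, did not overlap either. The same held for the kallikreins, at 2.94 to 3.32 against 3.46 to 4.02, and for the antimicrobial and alarm list. The means of all other lists overlapped.

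Crabp2, which hands retinoic acid to its nuclear receptor, was at 326, 325, 388, 295 and 349 against 766, 563, 917, 686 and 733 (log2 fold change 1.11, SE 0.13, limma adjusted p 0.00960). Its control libraries were close together, and its lowest eKO library was well above them. Rdh11, a retinal reductase, passed as well and was higher in all eKO libraries. These 2 genes were grouped after their values were seen, so the grouping is a description.

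**Figure D3:**
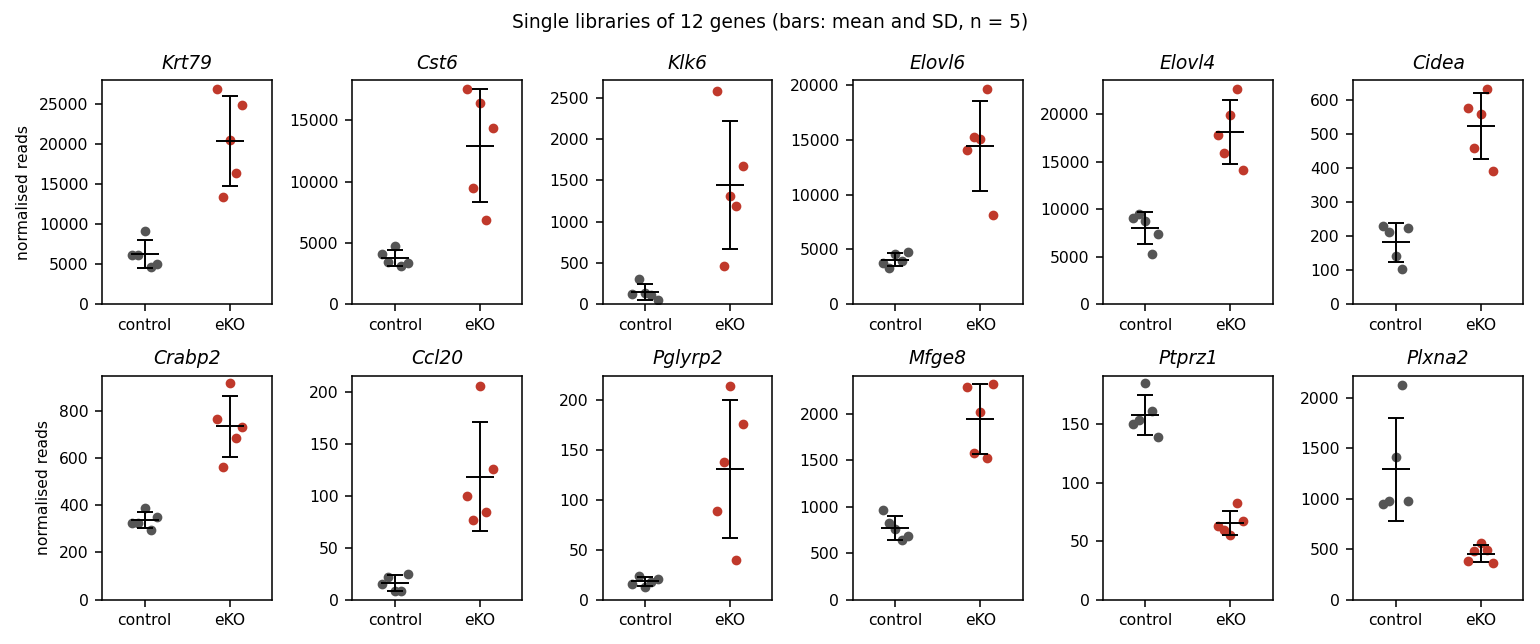
Normalised reads of 12 genes that passed the test, 1 panel per gene, with 1 point per library (control grey, eKO red) and the mean with its SD (n = 5 per genotype). In every panel the 5 libraries of one genotype lie apart from the 5 of the other; Ptprz1 and Plxna2 are lower in eKO and the other 10 higher.

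The next 5 genes that rose, a chemokine, an amidase, a scavenger receptor, a bridging protein and a solute carrier, are set together for reading after their values were seen, and belong to no common list. Ccl20, the chemokine that binds Ccr6 on lymphocytes and dendritic cells, was at 15.1, 21.9, 8.35, 8.4 and 24.7 in control and at 99.8, 76.6, 206, 84.2 and 126 in eKO skin, a 7.31-fold rise (log2 fold change 2.87, SE 0.37, limma adjusted p 0.0136). Pglyrp2, an amidase that cleaves bacterial peptidoglycan, was at 16.1, 23.6, 12.5, 17.7 and 20.9 against 89.1, 137, 214, 39.3 and 175 (log2 fold change 2.60, SE 0.41, limma adjusted p 0.0376), with eKO replicate 4 nearest to the controls. Olr1, a scavenger receptor for oxidised lipoprotein, was at 13.2, 5.9, 15.7, 14.9 and 8.55 against 98.0, 54.0, 81.5, 51.5 and 83.4 (log2 fold change 2.59, SE 0.31, limma adjusted p 0.00960). All 3 genes were low in control skin, and in none did the groups touch. Mfge8, a secreted bridge between dying cells and phagocytes, was at 962, 826, 754, 639 and 682 against 2283, 1580.4, 2012, 1517 and 2322 (log2 fold change 1.32, SE 0.16, limma adjusted p 0.00960), and the solute carrier Slc46a2 at 641, 658, 691, 547 and 574 against 1293, 1145, 1358, 1010.1 and 1233 (log2 fold change 0.95, SE 0.10, limma adjusted p 0.00960). Both passed whichever library was dropped.

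Calls in the lists of antimicrobial, chemokine and leukocyte genes are set here beside those over all genes tested. Of all genes, 0.374% passed in limma, 0.229% as rises, and 14.2% were at an unadjusted p under 0.05. In lists this short, 0 calls cannot be set apart from the 0.374%. Of 13 antimicrobial and alarm genes tested, 1 rose (Pglyrp2), with a median of 0.86. The mean log2 value of that list was 4.05 to 4.49 in control and 4.86 to 5.59 in eKO libraries, without overlap. Slpi, an inhibitor of leukocyte proteases, had a log2 ratio of 2.29 (limma adjusted p 0.0941), and Defb1, a defensin, one of 0.64 (limma adjusted p 0.0831). Of 19 chemokine ligands, 1 rose (Ccl20), with a median of 0.48, while Cxcl16 had 0.77 and Cxcl12 0.98 (limma adjusted p 0.141 and 0.159). The 11 stressed keratinocyte genes tested all had positive fold changes with a median of 2.00, but 0 passed (limma, 6 at an unadjusted p under 0.05). Krt17 was at 6729, 10316, 8593, 9617 and 8346 against 22512, 11933, 26813, 13164 and 20556 without overlap (log2 fold change 1.07, limma adjusted p 0.0820). Krt6a, a keratin of the outer root sheath and of wounded epidermis, was at 1008, 4272, 1027, 882 and 964 against 7908, 2253, 6589.96, 6224 and 5293, where control replicate 2 lay above eKO replicate 2 (log2 fold change 2.00, limma adjusted p 0.0975). Sprr2d, a cornified envelope protein, was at 7.57, 56.5, 9.4, 0 and 0 against 15.1, 20.6, 80.9, 1390.2 and 158, with eKO replicate 4 far above the rest (log2 fold change 4.05, limma adjusted p 0.222). Among leukocyte lists, 0 of 10 T cell genes passed (limma, 5 at an unadjusted p under 0.05; median 0.65). Cd4 was at 55.8, 27.0, 31.3, 15.9 and 53.2 against 105, 101, 106, 65.5 and 81.9 and Cd8a at 25.5, 19.4, 8.35, 1.87 and 8.55 against 28.5, 28.5, 40.5, 26.2 and 64.3, neither overlapping (log2 fold changes 1.42 and 1.77, limma adjusted p 0.0977 and 0.188). Of 10 macrophage genes 0 passed (limma, 1 at an unadjusted p under 0.05; median 0.57), with Lyz2 at 0.88 and Adgre1 at 0.54 (limma adjusted p 0.341 and 0.642). The mean log2 value of the T cell list was 5.68, 5.21, 5.02, 4.48 and 5.43 in control and 6.00, 6.12, 6.10, 5.49 and 6.20 in eKO libraries, and that of the macrophage list 9.57, 10.40, 7.93, 7.25 and 9.03 against 9.50, 9.05, 9.09, 9.54 and 9.56, both overlapping. The part of leukocytes in the rises of Ccl20 and Olr1 was not tested.

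The remaining rises were of varied function. Tnn, which encodes the matrix protein tenascin N, was at 45.4, 43.8, 56.4, 26.1 and 91.2 against 314, 108, 176, 183 and 276 (log2 fold change 2.00, SE 0.36, limma adjusted p 0.0453). Robo2, a receptor for Slit guidance proteins, was at 447, 372, 296, 358 and 313 against 753, 687, 798, 666 and 929 (log2 fold change 1.10, SE 0.13, limma adjusted p 0.00960), and the transcriptional regulator Zbtb7c at 604, 433, 485, 428 and 447 against 1120.4, 782, 1155, 1124 and 1053 (log2 fold change 1.12, SE 0.13, limma adjusted p 0.00960). Neither showed overlap, and both kept their call whichever library was left out. A pair of low-level transporters passed, Slco1a5, an organic anion carrier, at 2.84, 3.37, 4.18, 7.47 and 4.75 against 33.8, 10.8, 41.1, 24.3 and 29.2 (log2 fold change 2.32, limma adjusted p 0.0420), and Slc23a4 at 6.62, 13.5, 7.31, 5.6 and 12.4 against 45.4, 22.6, 31.5, 33.7 and 30.7 (log2 fold change 1.78, limma adjusted p 0.0420). Further genes that rose were Bgn (the proteoglycan biglycan), Adgrl3 (an adhesion G-protein-coupled receptor), Pcdh1 (a protocadherin), Kif1a (a kinesin), Ctsd (the lysosomal protease cathepsin D), Hspa4l (a chaperone), Shf, Tmem164, Zmynd15, Endod1 and Cdc42ep4.

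The 24 falls were 0.145% of the genes tested, and 0 of the genes of the 41 lists were among them. Plxna2, a receptor for semaphorins, was at 953, 981, 1411, 2133 and 975 in control and at 380.3, 487, 559.9, 493 and 364 in eKO skin, 2.71-fold lower (log2 fold change -1.44, SE 0.23, limma adjusted p 0.0375). Its 5 eKO libraries were close together, whereas control replicates 3 and 4 stood above the other controls. Ptprz1, a receptor tyrosine phosphatase, was at 150.4, 153, 185, 162 and 139 against 63.2, 59.9, 55.2, 82.4 and 67.3 (log2 fold change -1.26, SE 0.15, limma adjusted p 0.00960), tightly grouped in both genotypes. B4galnt2, a glycosyltransferase, fell from 127, 48.1, 68.9, 54.1 and 136 to 16.9, 24.5, 18.0, 6.55 and 16.1 (log2 fold change -2.31, SE 0.40, limma adjusted p 0.0420), and Bfsp2, an intermediate filament protein known from the lens, from 99.3, 47.2, 55.4, 47.6 and 130.2 to 18.7, 21.6, 16.7, 10.3 and 16.1 (log2 fold change -2.03, SE 0.33, limma adjusted p 0.0404). In both, control replicates 1 and 5 were the highest. Klhl11, a ubiquitin ligase adaptor, was at 77.6, 137, 91.9, 90.5 and 60.8 against 41.0, 33.4, 31.5, 29.0 and 42.4 (log2 fold change -1.31, limma adjusted p 0.0420). Lrrn1, a leucine-rich repeat membrane protein, was at 194, 157, 288, 171 and 170.1 against 80.2, 67.7, 105, 106 and 84.8 (log2 fold change -1.12, limma adjusted p 0.0421), and Grid2ip, a glutamate receptor-binding scaffold, at 126, 169, 139.9, 93.3 and 145 against 62.3, 72.6, 61.6, 51.5 and 52.6 (log2 fold change -1.13, limma adjusted p 0.0376).

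Other falls included genes of transport and the cytoskeleton. Fyco1, an adaptor for the transport of autophagosomes, was at 1304, 1417, 1688, 1099.7 and 1506 against 809.5, 671, 468, 644 and 787 (log2 fold change -1.06, SE 0.16, limma adjusted p 0.0329). Camsap2, which binds the minus ends of microtubules, was at 464, 608, 541, 490.1 and 397 against 271, 261, 288, 246 and 247 (log2 fold change -0.91, SE 0.12, limma adjusted p 0.0136). In both the highest eKO library stayed below the lowest control. Falls were also measured for the kinase Hipk1 (log2 fold change -0.94, limma adjusted p 0.0420), the mitochondrial magnesium channel Mrs2 (log2 fold change -0.93, limma adjusted p 0.0420), the chromatin remodeller Chd8 (log2 fold change -0.73, limma adjusted p 0.0420) and the methionine synthase reductase Mtrr (log2 fold change -0.65, limma adjusted p 0.0445). Fam208a, Rif1, Stk19, Zfp397 and Micall1 fell by less than Mtrr, and 5 of the 62 rows, Gm336, Gm47754, Gm13410, Mdm4-ps and ENSMUSG00002076161, all lower, are predicted genes, pseudogenes or rows without a symbol. Reads of a pseudogene such as Mdm4-ps cannot be told apart from those of a near-identical parent gene where counting does not say how shared reads were treated.

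Markers of most other compartments gave no calls, where 0.374% of all genes tested passed in limma and 14.2% were at an unadjusted p under 0.05. Lists this short would hold 0 calls at the 0.374% as well, so the 0 calls do not set these compartments apart from all genes. Counts at an unadjusted p under 0.05 differed between lists, from 0 of 15 for dermal fibroblasts to 5 of 10 for basal epidermis (limma). In the bulge stem cell list 0 of 13 genes passed (limma, 5 at an unadjusted p under 0.05; median 0.49), and its members went both ways. Sox9, a transcription factor of follicle stem cells, was at 1001, 582, 1269.8, 1176 and 1281 against 2137, 1233, 4128, 2278 and 1973 (log2 fold change 1.09, limma adjusted p 0.155), while Krt15, a keratin of the bulge, was at 26536, 13567, 29555, 21502 and 28867 against 14295, 20231, 15633, 7749 and 11256 (log2 fold change -0.81, limma adjusted p 0.237) and Fgf18, a growth factor of resting follicles, at 225, 245, 259, 126 and 262 against 96.2, 182, 118, 77.7 and 73.1 (log2 fold change -1.06, limma adjusted p 0.137). None of these 3 passed and their groups overlapped. For differentiated epidermis the count was 0 of 19 (limma, 4 at an unadjusted p under 0.05; median 0.33), for basal epidermis 0 of 10 (limma, 5; median -0.33), for dermal fibroblasts 0 of 15 (limma, 0; median 0.42) and for adipocytes 0 of 11 (limma, 0; median 0.66). The 18 cell cycle genes were all positive with 0 calls (limma, 0 at an unadjusted p under 0.05; median 0.54). Wnt targets (median -0.26), the Hedgehog pathway (0.05), the BMP pathway (-0.04), the interferon response (0.12) and the circadian clock (-0.28) gave 0 calls in limma as well, with 3, 1, 2, 1 and 2 genes at an unadjusted p under 0.05. There were likewise 0 calls in limma for Langerhans and dendritic cells (4 at an unadjusted p under 0.05; median 0.49), mast cells (0; 0.32), neutrophils (0; 0.68), blood endothelium (1; 0.23), Schwann cells (2; 0.15), melanocytes (0; 0.51), smooth muscle and pericytes (2; 0.09) and the mitochondrially encoded genes (0; -0.14). The 7 GRKs and arrestins tested, Grk2 among them, lay between -0.22 and 0.27 with 0 calls (limma, 1 at an unadjusted p under 0.05).

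**Figure D4:**
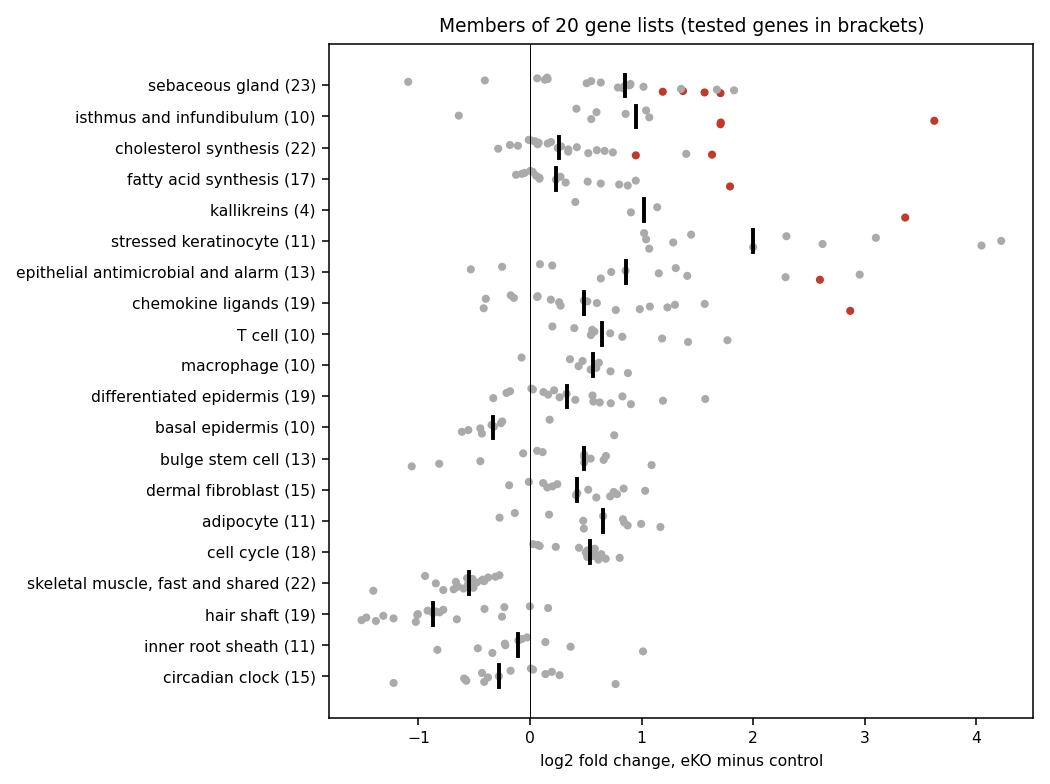
Log2 fold change of each tested member (points) of 20 gene lists, with the list's median (black bar); red points passed the test over all 16589 genes. The red points lie to the right of 0 in the sebaceous gland, isthmus and infundibulum, cholesterol, fatty acid, kallikrein, antimicrobial and chemokine lists, and the medians of the skeletal muscle and hair shaft lists lie at -0.55 and -0.87.

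Hair growth and muscle content were then entered as covariates, each as the mean log2 value of its list. With the hair score, 153 genes passed (0.922% of the genes tested), 98 higher and 55 lower, the 62 among them and 91 others. The share of list members among all genes tested was not worked out, so the list members among the 91 are a description. Of the 91, 7 belonged to the lists, and all 7 were higher in eKO skin, given here with their log2 ratios in that fit: the sterol genes Nsdhl (0.55) and Idi1 (1.45), the lipid genes Elovl3 (1.72), Fa2h (1.83) and Hsd17b12 (0.90), Klk7 (0.92) and the integrin gene Itgax (0.93), with adjusted p between 0.0391 and 0.0456 in limma. With the muscle score alone 15 genes passed, all among the 62. With both scores 22 passed, which is 0.133% of the genes tested, 15 higher (0.0904%) and 7 lower (0.0422%), and 16 of these were among the 62: Mfge8, Plxna2, Elovl6, Cstb, Slc46a2, Msmo1, Robo2, Acat2, Fyco1, Gm13410, Crabp2, Cst6, Olr1, Zbtb7c, Paqr7 and Ptprz1. All 62 kept their direction in that fit. By list, the calls with both scores were 0 of 23 sebaceous gland genes (4 without covariates), 1 of 10 of the isthmus and infundibulum (3 without), 1 of 22 in cholesterol synthesis (2 without), 1 of 17 in fatty acid synthesis (1 without), and 0 for kallikreins, antimicrobial genes and chemokines (1 each without). Mfge8 had the smallest adjusted p there, at a log2 ratio of 1.14 (limma adjusted p 0.00304, SE 0.08), followed by Plxna2 at -1.43 (limma adjusted p 0.0253, SE 0.15) and Elovl6 at 1.94 (limma adjusted p 0.0253, SE 0.21). Krt79 missed the threshold at 1.56 (limma adjusted p 0.0525, SE 0.24).

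The 6 genes that passed with both scores but not without covariates are named because of that result, and 3 of them, Cdkn2a, Papln and Zfp106, also passed with the hair score alone. Cdkn2a, the gene of the cell cycle inhibitors INK4a and ARF, was at a log2 ratio of 2.42 (limma adjusted p 0.040, SE 0.32), beside 2.58 without covariates. Tph1, which starts serotonin synthesis, was at 1.53 (limma adjusted p 0.0493, SE 0.23) and Ano7 at 1.09 (limma adjusted p 0.0329, SE 0.14). Slc6a6, the taurine transporter, was at -0.77 (limma adjusted p 0.040, SE 0.10), Papln at -1.49 (limma adjusted p 0.0466, SE 0.21) and Zfp106 at -0.86 (limma adjusted p 0.0466, SE 0.12). The muscle term passed as well for Tph1 and Slc6a6 in this fit, and the hair term for Cdkn2a and Zfp106. Leaving out the genes that make up the scores, the hair term passed in 127 genes, 105 of them rising with the score, and the muscle term in 147, 142 of them rising with it. Of the 62 genotype genes, 1 passed for the hair term and 0 for the muscle term. Over all genes outside the scores the shares were 0.767% and 0.888%, and counts of 1 and 0 in 62 genes are near those shares. With the log2 value of ENSMUSG00000119584 as covariate, chosen after the data were seen, 0 genes passed in limma (2278 at an unadjusted p under 0.05) and 0 in edgeR (2256), while all 62 kept their direction. The levels of that row do not overlap between the genotypes, so the row and the genotype cannot be told apart here.

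**Figure D5:**
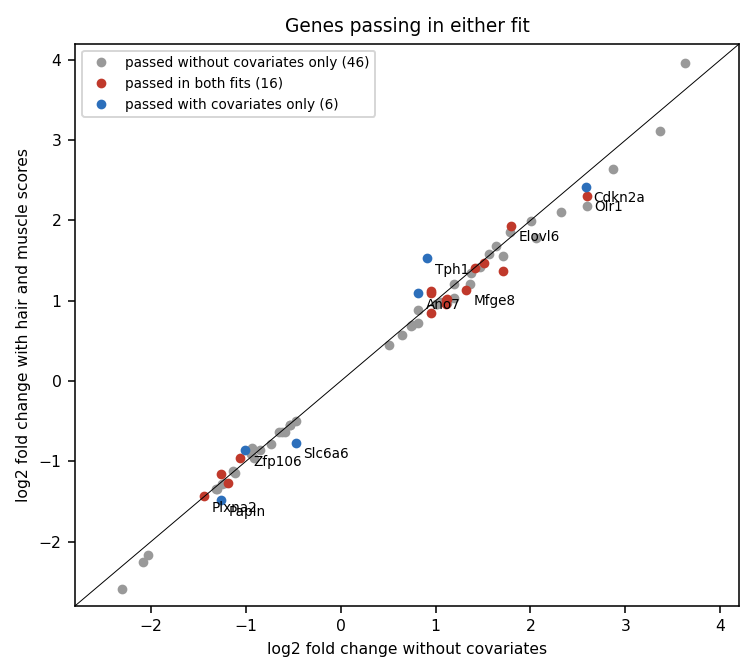
Log2 fold change of eKO over control with the hair and muscle scores as covariates (vertical) against that without covariates (horizontal) for the genes that passed in either fit, 1 point per gene, with the line of equal values. The 46 genes that passed only without covariates (grey), the 16 that passed in both (red) and the 6 that passed only with them (blue) lie near the line.

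How often single calls held when 1 library was left out was counted for the 62. A total of 11 passed in all 10 fits that left out 1 library: Slc46a2, Ptprz1, Mfge8, Paqr7, Crabp2, Elovl6, Olr1, Zbtb7c, Robo2, Gm13410 and Cstb. Ccl20 and Camsap2 passed in 8 of the 10. Krt79 and Cidea passed in 4, Klk6, Cst6 and Fyco1 in 3, and Krt42, B4galnt2 and Plxna2 in 1. The lost calls concern the adjusted p: none of the 62 changed direction in any of the alternatives in which it was tested.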

How the data were processed

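Reads of poly-A RNA, sequenced as pairs per the labels, were processed by the authors, who named featureCounts, DESeq2 and GRCm39 in the submitters' processing notes; aligner, annotation, strand and treatment of shared reads are not given in the sources used here. The deposited values are a signal: reads per gene divided by 1 size factor per library. Dividing each column by its smallest step returned whole reads for 100% of nonzero values (tolerance 0.01), 8213632 to 16383486 per library. All 10 columns were mapped through the sample descriptions. Symbols were matched by gene ID to the name list for 94.1% of rows (99.0% of rows with a read).

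From these values, log2(value + 1) was tested with limma (version 3.58.1, trended prior, no covariate) for genes at 10 or more in 5 libraries, p-values adjusted after Benjamini and Hochberg and called under 0.05, and the procedure was tested on simulated data. The fold change on this scale understates the change of low genes. edgeR (4.0.16) and DESeq2 (1.42.0) served as alternatives on those reads, beside other pseudocounts, filters, factors, covariates and left-out libraries. Samples were grouped by the genotype label. No 2 libraries agreed within counting noise. Members and lists were chosen with earlier results of these data known, and the lists were given no set test. Named genes were Grk2, the 14 largest rises, the 14 largest falls and the 10 smallest p among called genes with an established symbol, and up to 3 genes per list by p; Krt5, Krt10, Col1a1, Ddx3y, Krt71, Myh4, Myh7, Lars2, ENSMUSG00000119584, and the genes that passed only with covariates were chosen after their values were seen. Some genes that the rule names are not reported here. The 6 sorted-cell samples, in a table of their own, were left out. No coordinates are given for the table, since the reference at hand is of another build.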

Additional observations from a re-analysis of the deposited data

Results flagged for a closer look

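Groups of 5 libraries (a named gene or a list mean within 1 genotype) were examined for 1 library apart from the other 4. In 9 of 156 groups the gap was more than 0.71 of the group's range, where chance gives about 5% of groups. The 9 cases are near that share, so they are given as descriptions of single libraries. Control replicate 4 was high for hair matrix regulators, at a mean log2 value of 9.90 against 6.44 to 7.41 in the other controls, and for cell cycle genes, at 8.17 against 6.15 to 6.59. It was also the library with the most hair keratin. eKO replicate 3 was low for fast and shared skeletal muscle, at 9.24 against 11.24 to 11.75, and high for the BMP pathway, at 9.04 against 8.75 to 8.77. eKO replicate 4 was low for T cell genes, at 5.49 against 6.00 to 6.20, and high for red blood cell genes, at 5.28 against 3.84 to 4.24. eKO replicate 5, the shallowest library, was low for the interferon response, at 6.36 against 6.61 to 6.69. Among single genes, Lrrn1 was high in control replicate 3, at 288 against 157 to 194 normalised reads, and Zbtb7c was low in eKO replicate 2, at 782 against 1053 to 1155, still above every control.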

How the results depend on the processing

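The count of 62 genes was 61 with a pseudocount of 0.5, 66 with 5 and 56 with a minimum of 50. It was 63 with median-of-ratios factors and 65 with TMM factors. In edgeR it was 54, with 53 of the 62 among them. With array weights it was 74, with 52 of the 62, and with Y-linked expression as covariate 65, with 47 of the 62. It moved by more than 1.5 times to 37 without a filter (29 higher, 8 lower), 32 with library size only (22 higher, 10 lower), 656 in DESeq2 (332 higher, 324 lower), 153 with the hair score, 15 with the muscle score, 22 with both scores, 151 with the inner root sheath score (added after seeing the data), 0 with ENSMUSG00000119584 as covariate (also added) and 0 without the libraries that lacked Y-linked expression, where 8 libraries remained. Without 1 library each, it ran from 11 (without eKO replicate 1) to 57 (without eKO replicate 2), and was 20, 21, 19, 47 and 23 without control replicates 1 to 5 and 15, 23 and 14 without eKO replicates 3, 4 and 5. The cause was not tested. Grk2 kept its direction and did not pass in any alternative. Reversed values were those of Sox9 (-0.42) and Zfp106 (0.66) with ENSMUSG00000119584 as covariate. No paired analysis was possible because the skin labels carry no replicate numbers. Krt42, Slco1a5 and Slc23a4 rest on few reads in control libraries, which limits their precision.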
